A study of Mus musculus with 34 samples.

Results

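The cornea of the mouse embryo was compared between embryonic day 15.5 (E15.5) and embryonic day 14.5 (E14.5), across all genes that could be named. The samples were chosen by their labelled age and tissue: 3 arrays of whole cornea at E15.5 and 3 at E14.5, which are 6 of the 34 arrays of the series. The series follows the cornea of the CB6 mouse strain over 12 ages from E14.5 to 2 years, with 32 arrays of whole cornea, 1 of isolated epithelium and 1 of isolated stroma. All groups used here were wild type and untreated, and they differ in age alone: E14.5, E15.5 and, for the step that follows, E17.5, with 3 arrays each. Per the labels, globes were taken out, corneas were dissected free of the tissue around them, and cDNA was amplified from a small amount of total RNA before labelling. Values are probe-set intensities on a linear scale, as the authors deposited them.

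The cornea forms in layers. Surface ectoderm over the lens becomes the epithelium, and cells of the periocular mesenchyme, largely of neural crest origin, move in between it and the lens, where they become the endothelium on the inner face and the keratocytes of the stroma between. Epithelial cells of the cornea are known for the keratin Krt12, for basal keratins, and for desmosomes and detoxifying enzymes. Keratocytes make a transparent matrix of thin, evenly spaced collagen fibrils, held in place by small leucine-rich proteoglycans such as keratocan and lumican.

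The median intensity of the genes tested lay between 239.6 and 264.9 on the 9 arrays of E14.5, E15.5 and E17.5. Across genes, log2 values correlated with r between 0.879 and 0.948 among the E14.5 arrays, between 0.943 and 0.969 among the E15.5 arrays, and between 0.674 and 0.864 between the ages. The E14.5 arrays also carried RNA of other tissues, and to unequal degrees. The summed intensity of 25 lens genes was 11115, 139653 and 129514 on E14.5 replicates 1, 2 and 3 and 5258 to 5774 at E15.5, so replicates 2 and 3 stood apart. Of these 25 genes 7, 1 and 3 lay below the array median on the E14.5 arrays, against 15 to 16 at E15.5. The sum of 12 genes of the retina and optic cup was 33377 on E14.5 replicate 3 and 4238 and 4808 on the other E14.5 arrays, against 1603 to 3411 at E15.5. The sum of 3 globin genes of primitive red cells was 22227 to 32296 at E14.5 and 280 to 577 at E15.5. Skeletal muscle genes summed to 18930, 27744 and 8447 at E14.5 and to 32901, 4574 and 5978 at E15.5, with replicate 1 of E15.5 the highest of the 6 arrays. The part of this other RNA in the results that follow was not tested, and the arrays were therefore also compared one at a time. Nothing in the labels ties an array to an animal of its own. The spread behind the p-values is thus a spread between arrays, which may be technical. It was estimated over all 32 arrays of whole cornea and shared by all ages, so it is not that of the E14.5 and E15.5 arrays alone. The lowest r was 0.879 among the E14.5 arrays and 0.943 among the E15.5 arrays, and a shared spread does not show this difference. The SEs and p-values therefore need not measure the spread at E14.5. The mean of each age compared rests on 3 arrays, which limits the precision. In a whole cornea, fewer cells of a type and less RNA per cell cannot be told apart.

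Markers of the labelled tissue gave a mixed picture at E14.5. Krt12 lay below the array median on all 3 E14.5 arrays, and the gene of keratocan, Kera, lay above it on replicate 1 alone, while the basal keratins Krt5, Krt14 and Krt15 and the eye factor Pax6 lay above it on all 3. On every E15.5 array Krt12 and Kera were far above it. A gene was called changed when its adjusted p, from limma with Benjamini-Hochberg adjustment over 12998 genes, was under 0.05 and its difference, on the log2(intensity + 16) scale, was at least 1 in size; the offset of 16 understates the change of genes with low intensity. By this rule 1358 genes were called (10.4%), 955 of them higher at E15.5 (7.35%) and 403 lower (3.1%), while the median difference of all genes was 0.01.

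A called change was said to hold on every E14.5 array when the ages did not overlap and each single E14.5 array lay at least 1 log2 unit from the mean of the E15.5 arrays, on the same side. This was so for 741 genes, 538 higher (4.14%) and 203 lower (1.56%), or 54.6% of those called. Lack of overlap alone was common: of all 12998 genes, 3300 lay wholly higher at E15.5 and 2860 wholly lower. Among the 1358 called genes 1303 did not overlap, so for a called gene it adds little. The E14.5 array that most often fell short was replicate 1 for genes that were lower at E15.5, with 153 of the 403 nearer than 1 log2 unit, against 78 on replicate 2 and 27 on replicate 3. For genes that were higher at E15.5, replicates 1 and 2 came nearer than 1 log2 unit in 248 and 243 of 955 cases and replicate 3 in 64. By definition, genes that held on every E14.5 array lay at least 1 log2 unit from the E15.5 mean on replicate 1. With replicate 1 as the only E14.5 array, only their adjusted p could fail. Calling them again there is thus no separate check of these genes. With the lens-rich replicates 2 and 3 left out, E14.5 was represented by replicate 1 alone, which was assumed to vary like the other ages. Against this array 813 genes were called higher (6.25%) and 253 lower (1.95%), and 660 of the 741 genes that held on every E14.5 array were again called.

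**Figure D1:**
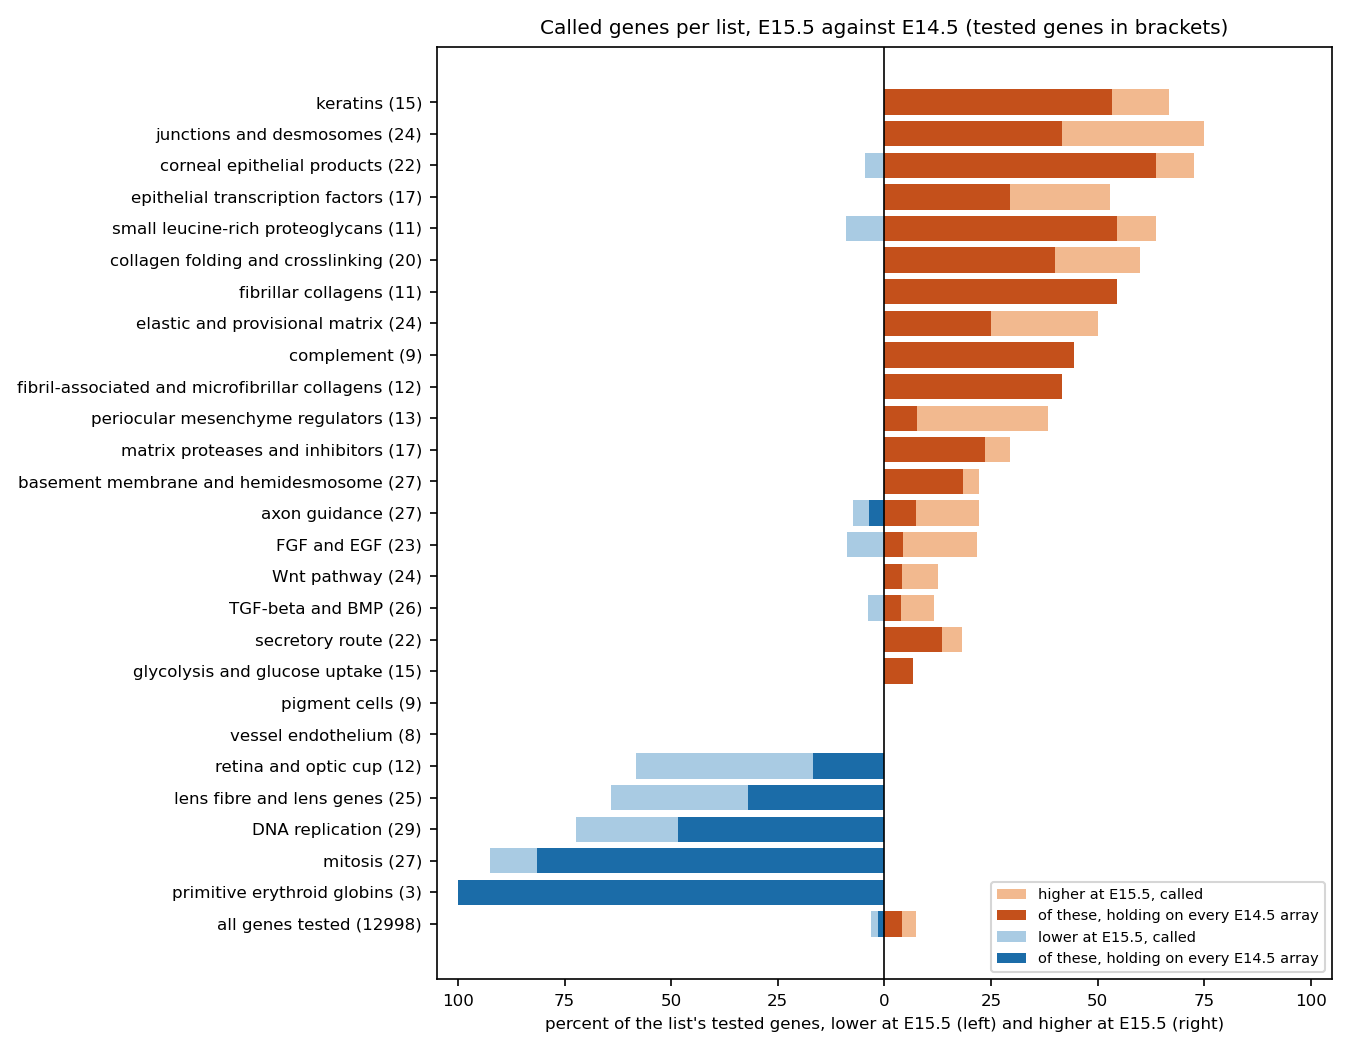
Percent of each list's tested genes that were called higher (right, orange) or lower (left, blue) at E15.5, with the darker part holding on every E14.5 array and the number of tested genes in brackets. Epithelial and collagen lists lie to the right, while mitosis (25 of 27 genes called), DNA replication, lens genes and primitive globins lie to the left.

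On the log2(intensity + 16) scale the largest rise of any gene tested was that of a keratin; with an offset of 1 the serpin Serpinb3a, at 7.99, was above Krt12, at 7.02. Krt12, the keratin of the differentiated corneal epithelium, had intensities of 55.6, 62.8 and 48.2 at E14.5 and of 5329, 8500.2 and 8654 at E15.5. Its 3 E14.5 arrays were close together and far below every E15.5 array. The log2 difference was 6.68 (SE 0.19, limma adjusted p = 2.9e-18). This is a 103-fold rise in intensity + 16, which understates the rise in intensity itself. Against E14.5 replicate 1 alone the log2 difference was again 6.68. The part of its promoter shown here is printed because Krt12 gave the largest rise on the scale with the offset of 16: the 250 bases before its start, RefSeq GRCm38.p6, chr11:99422260-99422509, minus strand, 5′ to 3′, with the letters CACCC, a motif bound by Krüppel-like factors, or their reverse complement in capitals.
Krt12: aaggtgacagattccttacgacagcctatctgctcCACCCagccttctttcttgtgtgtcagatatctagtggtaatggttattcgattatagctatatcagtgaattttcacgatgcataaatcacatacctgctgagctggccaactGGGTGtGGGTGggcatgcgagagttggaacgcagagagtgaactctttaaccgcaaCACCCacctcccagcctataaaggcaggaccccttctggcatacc
The motif lies 4 times in these bases, nearest to the start at -45 to -41. Among 9 keratin promoters found in RefSeq, 88.9% held CACCC on either strand, 44.4% held GGAAG, the core of Ets-factor sites, and 11.1% held TGACTCA, the AP-1 motif. The shares among all 32851 promoters were 57.5%, 71.4% and 5.2%. All these shares were counted over windows that also held bases after the start.

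Of 15 keratins tested 10 rose, 8 of them on every E14.5 array, and none fell, with a median log2 difference of 2.37. Krt13, a keratin of moist stratified epithelia, rose by 5.26 on the log2 scale, and Krt6a, a keratin of stressed and rapidly renewing epithelia, by 4.92. The basal keratin Krt5 had 661, 2355 and 421 at E14.5 and 8373, 10242 and 9755 at E15.5. The ages did not overlap although E14.5 replicate 2 stood above its group, and the log2 difference was 3.41 (SE 0.31, limma adjusted p = 1.3e-08). Krt15, another basal keratin, went from 422 to 772 up to 7623 to 9137. The basal keratin Krt14 was already at 1340 and 1784 on E14.5 replicates 1 and 2 and at 342 on replicate 3, and reached 2130 to 3991 at E15.5. Its log2 difference of 1.70 did not hold on every E14.5 array, and it was 0.99 and no longer called without replicate 3. The simple-epithelium keratins diverged: Krt19 rose by 2.81, Krt7 by 2.37 and Krt8 by 1.20, the last falling to 0.93 without E14.5 replicate 3, while Krt18 had a log2 difference of 0.17 (limma adjusted p = 0.63). Krt4, Krt16, Krt17 and Krt23 did not pass the test either.

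Other products of the corneal epithelium rose with the keratins: 16 of 22 genes, 14 of them on every E14.5 array, with a median of 1.97, and 1 fell. Aldh3a1, an aldehyde dehydrogenase abundant in adult corneal epithelium, had 39.1, 25.8 and 28.1 at E14.5 and 319.8, 482 and 626 at E15.5. No array of one age came near the other, with a log2 difference of 3.35 (SE 0.18, limma adjusted p = 1.7e-12). Tkt, the transketolase that is also abundant in this epithelium, rose by 1.30. Larger rises were seen in Mal, a membrane protein of apical transport, with 4.28, in Upk1b, a uroplakin, with 3.88, and in Lypd2, a Ly6-domain protein, with 3.66. Clu, a secreted chaperone, rose by 2.92 and Muc4, a membrane mucin, by 2.43. Gjb6, the gap junction protein connexin 30, went the other way, from 634, 992 and 242 to 144, 165 and 224. Its arrays did not overlap, but E14.5 replicate 3 lay close to the E15.5 arrays, and the log2 difference of -1.53 did not hold on every E14.5 array. Promoters of 12 of these genes were matched, of which 75.0% held CACCC and 75.0% GGAAG.

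Epithelial transcription factors rose in 9 of 17 cases, 5 of them on every E14.5 array, with a median of 1.04. Ehf, an Ets factor of stratified and glandular epithelia, had 59.7, 20.0 and 71.9 at E14.5 and 698, 1641 and 1435 at E15.5. Every E15.5 array was far above every E14.5 array, and the log2 difference was 4.27 (SE 0.27, limma adjusted p = 2.2e-11). Klf5 and Klf4, Krüppel-like factors needed for a normal corneal epithelium, rose by 2.42 and 2.34, and Grhl1, a grainyhead-like factor, by 1.86. Trp63, the p63 factor of basal cells of stratified epithelia, had 896, 1149 and 198 on the E14.5 arrays and 1062, 1974 and 1974 at E15.5. Replicate 2 of E14.5 lay above replicate 1 of E15.5, and the log2 difference of 1.41 became 0.65, no longer called, without E14.5 replicate 3. Pax6, the eye field factor that the lens and the retina also express, had 1012, 1492 and 3158 at E14.5 and 2171, 3896 and 3769 at E15.5. Its E14.5 values followed the retina genes in being highest on replicate 3, and its log2 difference of 0.91 (limma adjusted p = 5.9e-03) was under the threshold of size. Against E14.5 replicate 1 alone Pax6 was called, with 1.63 (SE 0.22, limma adjusted p = 2.1e-05).

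Genes of cell junctions rose in 18 of 24 cases, 10 of them on every E14.5 array, with a median of 1.47. The desmosomal cadherins Dsg3 and Dsc3 rose by 3.64 and 3.63, the plakins Ppl and Dsp, which tie desmosomes to keratin, by 3.60 and 3.03, and Jup, the plakoglobin linking the cadherins to them, by 2.21. Dsg3 had 186, 232 and 35.4 at E14.5 and 1060, 1971 and 2332 at E15.5, and Dsp had 978, 988 and 197 against 3504, 5546 and 5893. In both genes E14.5 replicate 3 was the lowest array and E15.5 replicate 1 the lowest of its age. Of tight junction genes, Cldn1, Ocln and Cldn4 rose by 2.30, 2.07 and 1.62 on every E14.5 array. Cdh1, the E-cadherin of all epithelia, was already at 863 and 1025 on E14.5 replicates 1 and 2, and its log2 difference of 1.55 became 0.84 without replicate 3, which had 202. Without replicate 3, 14 of the 18 junction genes were called. E14.5 replicate 3 was the lowest of its age for 19 of the 24 junction genes, and E15.5 replicate 1 for 21 of them. The same arrays were the highest of their ages for 26 and 24 of 27 mitosis genes, and whether this bears on the epithelial values was not tested.

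In the basement membrane and its hemidesmosomes 6 of 27 genes rose, 5 of them on every E14.5 array, with a median of 0.56. The hemidesmosome components Col17a1 and Itgb4 rose by 2.76 and 2.09, Lama3, the laminin chain that binds them, by 1.97, and the linker nidogen, Nid1, by 1.89. Col17a1 had 339, 277 and 73.5 at E14.5 and 1082, 1542 and 1669 at E15.5, with no overlap. The type IV collagen chain Col4a1 had a log2 difference of 0.51 and the integrin Itga6 of 0.29, neither called. In a short list of genes of keratinising skin, 3 of 6 rose: Calml3, a calmodulin-like protein, by 3.90, Krtdap, a keratinocyte differentiation protein, by 3.46 and Sbsn, suprabasin, by 1.83. Among the 15 genes with the largest rises on every E14.5 array were also the intracellular serpins Serpinb3a, Serpinb5 and Serpinb11, with 5.42, 4.62 and 5.49, the stefin Csta1 with 4.61, the epithelial protease Asprv1 with 4.30 and the carbonyl reductase Cbr2 with 4.67. Serpinb3a read between 0 and 5.53 at E14.5 and between 486.9 and 1242 at E15.5.

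**Figure D2:**
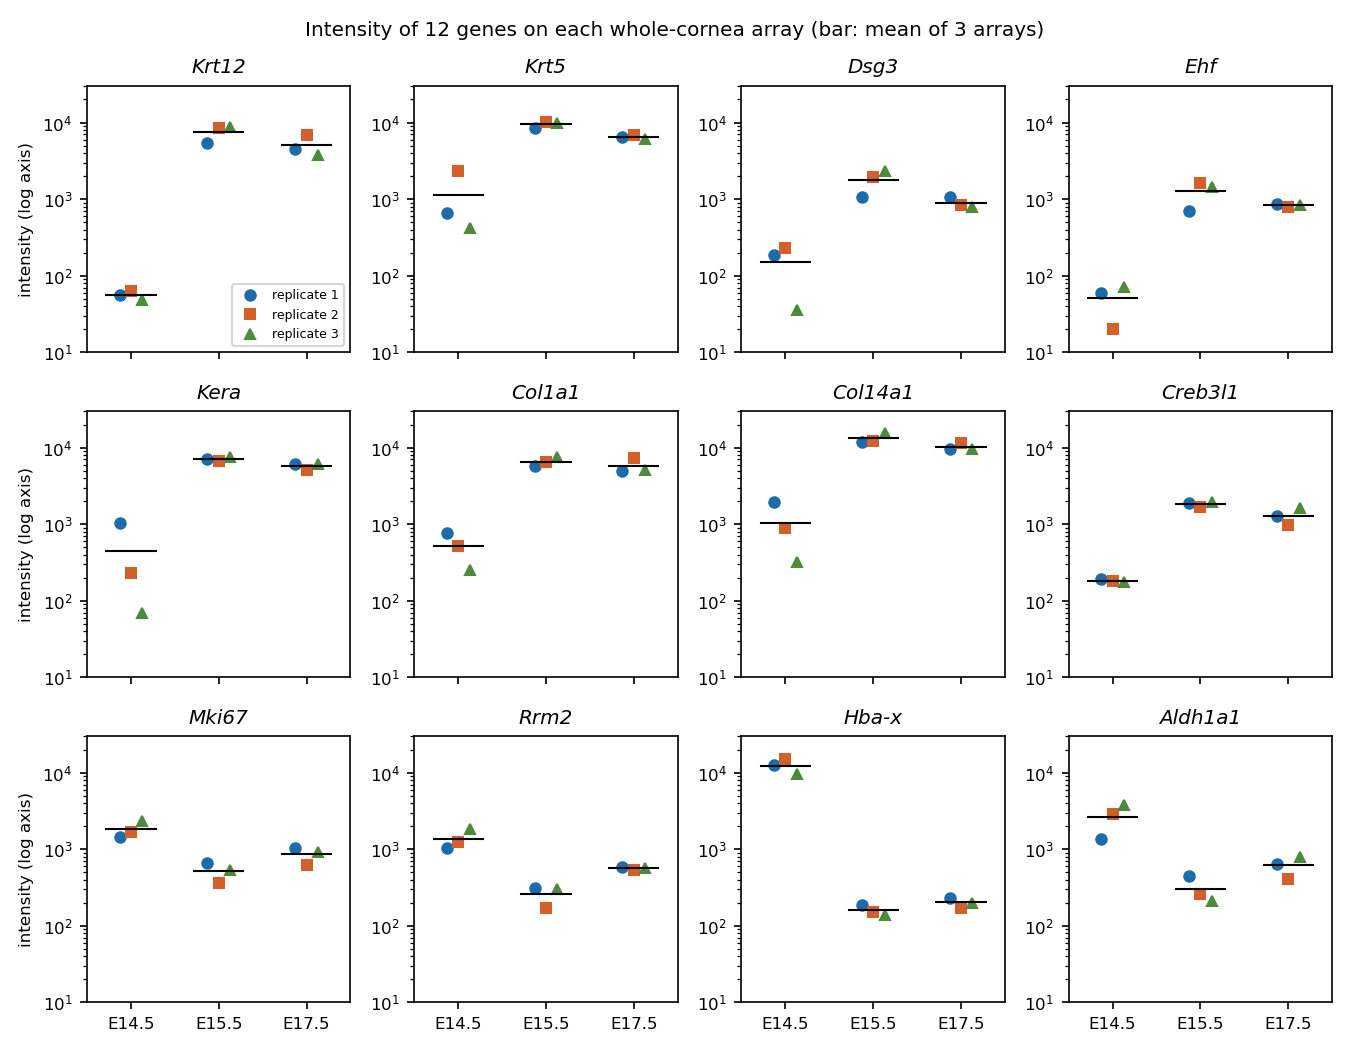
Intensity (log axis) of 12 genes on each of the 3 arrays of E14.5, E15.5 and E17.5, with one symbol per replicate number and a bar at the mean. Krt12 and Creb3l1 are tight at E14.5 and jump to E15.5, Kera is spread over E14.5 from 69.6 to 1041, and Hba-x drops from 9518 or more to 189.5 or less.

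Collagens of the stroma rose as well. Of 11 fibrillar collagen genes 6 rose, all on every E14.5 array, with a median of 1.83. Col1a1, the main chain of type I collagen, had 778, 518 and 249.7 at E14.5 and 5774, 6398 and 7568 at E15.5. Every E15.5 array was far above the highest E14.5 array, and the log2 difference was 3.76 (SE 0.39, limma adjusted p = 7.8e-08). Its partner chain Col1a2 rose by 2.99, Col5a2 and Col11a1, chains of the minor fibrillar collagens that limit fibril diameter, by 3.22 and 2.49, and Col3a1 by 2.66. Col5a1, the partner of Col5a2, had a log2 difference of 0.75 (limma adjusted p = 3.3e-04), under the threshold of size. In the group of fibril-associated and microfibrillar collagens 5 of 12 rose, on every E14.5 array, and the median of the group was 0.23. These were the 3 chains of beaded type VI collagen, Col6a1, Col6a3 and Col6a2, with 4.70, 4.31 and 3.55, and the fibril-associated Col14a1 and Col12a1, with 3.96 and 3.35. Col14a1 had 1924, 898 and 322 at E14.5 and 11678, 12199 and 15737 at E15.5, so its E14.5 arrays were spread but well below E15.5. The 11 called collagen genes of both groups were called against E14.5 replicate 1 alone too, with Col1a1 at 3.05 and Col14a1 at 2.76.

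Small leucine-rich proteoglycans rose in 7 of 11 cases, 6 of them on every E14.5 array, with a median of 1.85, and 1 fell. Kera, the core protein of corneal keratan sulfate, had 1041, 233 and 69.6 at E14.5 and 7151, 6788 and 7526 at E15.5. The E14.5 arrays differed among themselves far more than the E15.5 arrays, and the log2 difference was 4.67 (SE 0.57, limma adjusted p = 9.9e-07). Against E14.5 replicate 1 alone it was 2.76 (SE 0.56, limma adjusted p = 1.2e-03). Lum, lumican, had 2447, 1345 and 244 at E14.5 and 6482, 6662 and 8247 at E15.5, a log2 difference of 2.90. Its order at E14.5 was that of Kera, and against replicate 1 alone its difference of 1.53 was not called (limma adjusted p = 0.075). Biglycan, Bgn, rose by 3.37 and decorin, Dcn, by 2.60, both also called against replicate 1 alone, with 2.14 and 2.00. Fmod and Ogn rose by 1.96 and 1.81, but neither was called against replicate 1 alone, and Aspn was called in the full comparison with 1.84 and no longer without E14.5 replicate 3 (1.20) or E15.5 replicate 1 (1.36). Omd, osteomodulin, fell by 1.40 and did not hold on every E14.5 array. Of 9 genes of keratan sulfate synthesis 2 rose, with a median of 0.40. Chst5, the sulfotransferase of corneal keratan sulfate, went from 143 to 249.9 up to 1095 to 1536, with no overlap and a log2 difference of 2.61. B4galt1, a galactosyltransferase, had 1.44, and 0.90 without E14.5 replicate 3. The other sulfotransferase Chst1 had a log2 difference of -0.16 and B3gnt7, which extends the chain, of 0.29, neither called.

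The enzymes that fold and crosslink collagen rose in 12 of 20 cases, 8 of them on every E14.5 array, with a median of 1.14. The prolyl hydroxylase P3h1 and its partner Crtap rose by 2.90 and 2.02, the lysyl hydroxylase Plod1 by 2.85 and Pcolce, which speeds removal of the procollagen end, by 2.69. Serpinh1, the collagen chaperone of the endoplasmic reticulum, rose by 1.33. P3h1 had 336, 289 and 139 at E14.5 and 1791, 1524 and 2462 at E15.5. The crosslinking oxidase Lox rose by 2.00, which became 1.11 without E14.5 replicate 3, while Loxl1 rose by 2.01. Plod2, another lysyl hydroxylase, had 0.40 and did not pass the test. In the secretory route as a whole 4 of 22 genes rose, with a median of 0.40. One of them was Creb3l1, a membrane-bound transcription factor known from collagen secretion in bone. It had 194, 181 and 173 at E14.5 and 1873, 1668 and 1926 at E15.5. The arrays of each age were close together, and the log2 difference was 3.21 (SE 0.35, limma adjusted p = 1.9e-07), or 3.13 against replicate 1 alone. Its relative Creb3l2 had 1.18, and 0.76 without E14.5 replicate 3. The retrieval receptor Kdelr3 and Sec24d, a coat protein of vesicles that carry procollagen, rose by 2.32 and 1.92.

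Elastic and provisional matrix genes rose in 12 of 24 cases, 6 of them on every E14.5 array, with a median of 1.00. The thrombospondins Thbs4 and Thbs2 rose by 5.30 and 4.21, the hyaluronan receptor Cd44 by 2.41 and Tgfbi, the keratoepithelin of corneal matrix, by 1.99. Thbs4 had 55.1, 136 and 47.6 at E14.5 and 2726, 3211 and 4693 at E15.5, with no overlap. These 4 genes were also called against E14.5 replicate 1 alone, whereas the other 8, fibronectin Fn1 (0.90), fibulin Fbln5 (0.79), Mfap4 (1.02), Mfap2, Ltbp1 (0.55), periostin Postn (1.08), Thbs1 (0.90) and fibrillin Fbn2 (0.25), were not. Without E14.5 replicate 3 the count was 8 of 24, with Ltbp1, Postn, Thbs1 and Fbn2 no longer called. Elastin, Eln, had a log2 difference of 0.11 (limma adjusted p = 0.82). Of 17 matrix proteases and inhibitors 5 rose, with a median of 0.71. They were the broad protease inhibitor A2m, which went from 69.0 to 112 up to 4451 to 7811, a log2 difference of 5.86, the metalloprotease inhibitor Timp2 with 2.17, the membrane protease Mmp14 with 2.07, the gelatinase Mmp2 with 1.92 and Adamtsl1 with 1.06. Mmp2 had 1.25 and Adamtsl1 0.34 without E14.5 replicate 3, and Adamtsl1 was no longer called without that array or E15.5 replicate 2 (1.05) or 3 (0.92); a further probe set of Adamtsl1 gave 0.45.

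The genes chosen for the corneal endothelium did not move together: 2 of 11 rose and 2 fell, with a median of 0.08. The water channel Aqp1 had 175, 65.1 and 32.8 at E14.5 and 1231, 1385 and 1785 at E15.5, a log2 difference of 4.01 (SE 0.44, limma adjusted p = 1.8e-07). N-cadherin, Cdh2, which the lens also expresses, had 675, 1238 and 1794 at E14.5 and 414, 153 and 121 at E15.5. Its log2 difference was -2.43, and -1.68 against replicate 1 alone, which carried the least lens RNA. Carbonic anhydrase, Car2, fell by 1.49 and did not hold on every E14.5 array. The solute carrier Slc4a11 stayed below the array median on all 6 arrays, and Col8a2, of the endothelial basement membrane, had a log2 difference of 0.18.

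Regulators of the periocular mesenchyme rose in 5 of 13 cases, with a median of 0.81, and 1 of the 5 held on every E14.5 array. By limma none of the 13 was called against E14.5 replicate 1 alone, where 1 had an unadjusted p under 0.05, and without replicate 3 the count was 1. Foxc1, a forkhead factor needed for the anterior segment, had 342, 181 and 44.1 at E14.5 and 498, 528 and 484 at E15.5. Its 3 E15.5 arrays were level, while the E14.5 arrays were spread, with replicate 3 the lowest, and the log2 difference of 1.68 was 0.54 against replicate 1. Prrx1 had 2558, 1447 and 273 against 3662, 3350 and 3882, and Tfap2b had 2424, 1506 and 338 against 2706, 2709 and 3018. In both genes the rise lay mostly in replicate 3, with 0.91 and 0.55 when that array was left out. The same held for Twist1, at 1.56 in the full comparison and 0.86 without it. Twist2 rose by 1.96 and was the 1 gene that held on every E14.5 array. Of the 6 largest rises that did not hold, Dkk2, Steap4, Hmcn1, Lrrc17 and Mug2 had E14.5 replicate 3 far below replicate 1. Dkk2, a Wnt inhibitor, had 3488, 1213 and 253 at E14.5 and 6606, 5197 and 6959 at E15.5, and Steap4, a metalloreductase, had 887, 104.6 and 42.3 against 1153, 1017 and 1090.2. Hmcn1, hemicentin, and Lrrc17, a leucine-rich repeat protein, had log2 differences of 2.27 and 2.19. Without E14.5 replicate 3 they were 1.16 for Hmcn1, 1.38 for Lrrc17 and 1.58 for Dkk2. Mug2, a murinoglobulin, read 332, 4.73 and 2.03 at E14.5 and 149 to 279.6 at E15.5, so that its direction rested on replicates 2 and 3, and a further probe set of the gene gave a log2 difference of -0.48, of opposite sign.

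**Figure D3:**
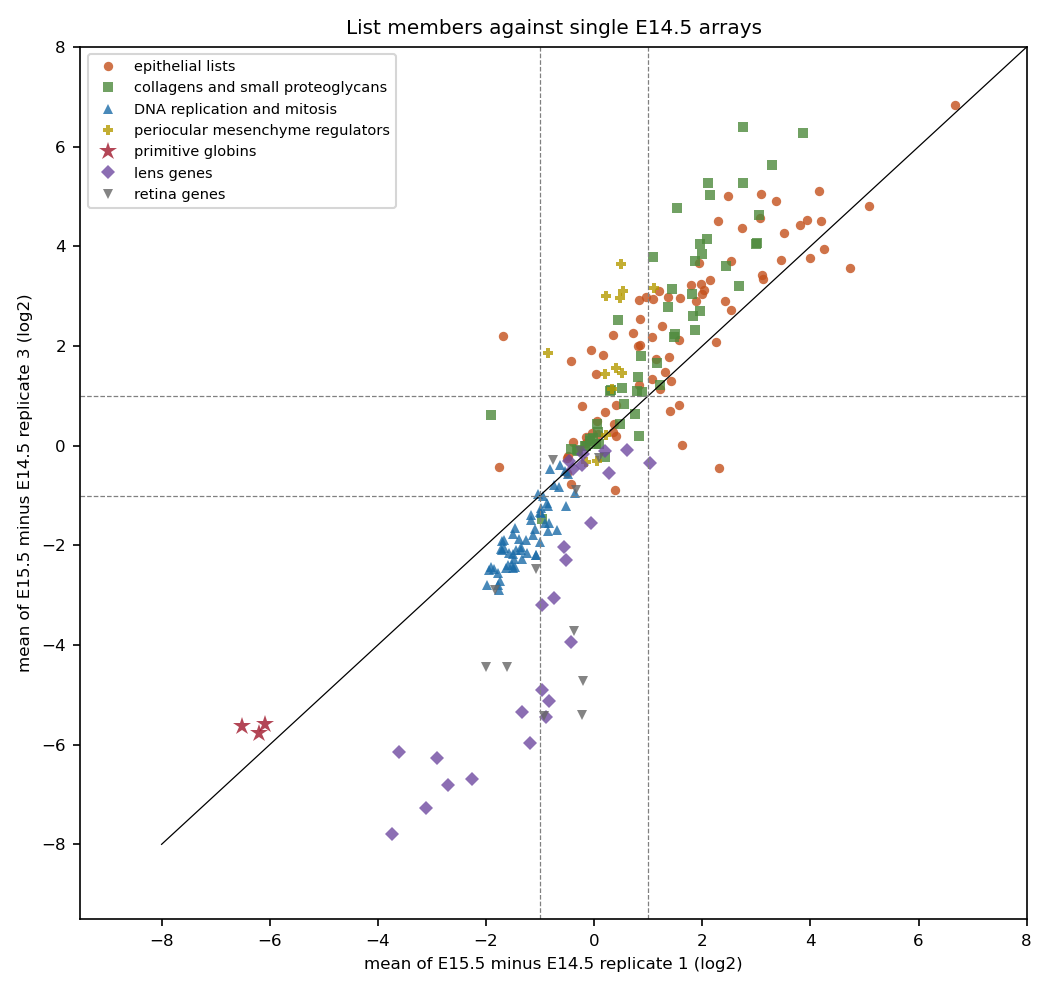
For members of 14 lists, the mean of E15.5 minus E14.5 replicate 1 (horizontal, log2) against the mean of E15.5 minus E14.5 replicate 3 (vertical, log2), with dashed lines at -1 and 1 and a line of equal difference. Primitive globins lie near -6 on both axes, 23 of 25 lens genes and 10 of 12 retina genes lie below the line of equal difference, and 10 of 13 periocular mesenchyme regulators lie above it.

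Genes of cell division fell. Of 27 mitosis genes 25 fell, 22 of them on every E14.5 array, and none rose, with a median of -1.78. Mki67, the marker of dividing cells, had 1459, 1661 and 2332 at E14.5 and 658, 365 and 538 at E15.5. The lowest E14.5 array was above the highest E15.5 array, and the log2 difference was -1.78 (SE 0.22, limma adjusted p = 9.6e-07). The kinase Cdk1, which drives entry into mitosis, had 1206, 1336 and 2227 against 572, 259 and 466, a log2 difference of -1.86. The checkpoint kinase Bub1 fell by 2.27, the kinetochore proteins Ndc80 and Nuf2 by 2.03 and 2.02, the motor Kif11 by 2.09 and the cyclin Ccnb2 by 1.88. The smallest falls were those of Kif23 and Plk1, with -1.03 and -1.11, which were -0.95 and -0.83 and no longer called without E14.5 replicate 3, as they were without E15.5 replicate 2 (-0.97 for both), and Kif23 without E15.5 replicate 1 (-0.98). E14.5 replicate 3, which had the most retina RNA of its age, was the highest of its age for 26 of the 27 genes. Against replicate 1 alone 23 mitosis genes were called lower, by a smaller median than in the full comparison. Promoters of Cdk1 and Ccnb2 are printed because motifs known from genes of this phase recur in members that fell together. They are the 250 bases before the start, RefSeq GRCm38.p6, both on the minus strand, chr10:69352913-69353162 for Cdk1 and chr9:70421555-70421804 for Ccnb2, 5′ to 3′, with CCAAT, the site of the factor NF-Y, and TTTGAA, the core of the cell cycle genes homology region, in capitals on either strand.
Cdk1: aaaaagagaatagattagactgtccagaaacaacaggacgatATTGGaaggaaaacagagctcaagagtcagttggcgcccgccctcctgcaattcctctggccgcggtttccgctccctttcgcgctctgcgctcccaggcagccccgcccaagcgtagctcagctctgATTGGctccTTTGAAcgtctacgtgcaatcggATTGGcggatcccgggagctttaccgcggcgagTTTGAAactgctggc
Ccnb2: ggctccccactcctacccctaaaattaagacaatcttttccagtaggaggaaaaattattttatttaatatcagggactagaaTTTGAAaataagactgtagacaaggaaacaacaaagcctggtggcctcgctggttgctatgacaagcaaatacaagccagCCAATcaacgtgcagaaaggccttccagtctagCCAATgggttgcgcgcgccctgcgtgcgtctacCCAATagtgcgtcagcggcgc
Both promoters hold CCAAT 3 times, and TTTGAA lies at -71 to -66 and -15 to -10 in Cdk1 and at -167 to -162 in Ccnb2. Of 25 mitosis promoters 72.0% held CCAAT and 76.0% held TTTGAA, against 37.4% and 17.9% of all promoters. These shares were counted over windows that also held bases after the start.

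DNA replication genes fell in 21 of 29 cases, 14 of them on every E14.5 array, and none rose, with a median of -1.17. Rrm2, the ribonucleotide reductase subunit that supplies nucleotides, had 1034, 1233 and 1829 at E14.5 and 309.7, 170.2 and 299 at E15.5. All E14.5 arrays were above all E15.5 arrays, with a log2 difference of -2.33 (SE 0.21, limma adjusted p = 1.1e-08). Gins1 and Rfc4, of the replication machinery, fell by 2.16 and 1.88, and the helicase subunits Mcm6, Mcm7 and Mcm5 by 1.62, 1.29 and 1.19. Pcna, the sliding clamp, had -1.08, and -0.85 without E14.5 replicate 3 and -0.99 without E15.5 replicate 3, no longer called. Mcm2 had a log2 difference of -0.75 (limma adjusted p = 4.7e-06), under the threshold of size. Against replicate 1 alone 15 of the 29 were called lower. Of 30 promoters of these genes 56.7% held CCAAT and 10.0% held TTTGAA. Of 13 inhibitors of the cycle 2 were called, beside 10.4% of all genes: Rbl2, a retinoblastoma-like protein, was called higher with 1.00 and Gadd45a, a growth arrest gene, lower with -1.96, neither on every E14.5 array. Rbl2 had 0.93 without E14.5 replicate 3 and 0.95 without E15.5 replicate 2, no longer called, and Gadd45a had -1.24 without E14.5 replicate 3. Cdkn1c and Cdkn1b, inhibitors of cyclin-dependent kinases, had log2 differences of 0.74 and 0.66 and were not called. Of 17 regulators of embryonic growth 2 were called, beside 10.4% of all genes, neither on every E14.5 array. Peg3, an imprinted zinc finger gene, rose by 1.44. Lin28b, which blocks let-7 maturation, had 159, 290.5 and 539 at E14.5 and 93.3, 73.4 and 61.6 at E15.5, a log2 difference of -1.77, and -0.94 against replicate 1. Igf2, the fetal growth factor, had 0.61 (limma adjusted p = 0.24).

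The 3 globin genes of primitive red cells fell on every E14.5 array, with log2 differences of -6.13 for Hba-x, -6.35 for Hbb-bh1 and -5.71 for Hbb-y. Hba-x, the embryonic zeta globin, had 12799, 14943 and 9518 at E14.5 and 189.5, 150.1 and 139.5 at E15.5. All E14.5 arrays were far above all E15.5 arrays, and the SE was 0.20 (limma adjusted p = 4.6e-17). The promoter of Hba-x is printed because this gene fell as far on E14.5 replicate 1, at -6.20, as on the lens-rich arrays. It is RefSeq GRCm38.p6, chr11:32276350-32276599, plus strand, 5′ to 3′, with CACCC, the motif of erythroid Krüppel-like factor, in capitals.
Hba-x: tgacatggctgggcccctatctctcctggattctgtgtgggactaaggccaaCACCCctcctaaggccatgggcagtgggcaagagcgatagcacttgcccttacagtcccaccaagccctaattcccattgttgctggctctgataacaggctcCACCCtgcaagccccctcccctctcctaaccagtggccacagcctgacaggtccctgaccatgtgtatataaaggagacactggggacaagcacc
The motif lies at -198 to -194 and at -95 to -91, and 57.5% of all promoters hold CACCC. Promoters of 2 of the 3 globin genes were found. AGATAA, also searched, was in 0 of these 2, against 11.2% of all promoters. Of 8 further red cell genes 1 was called, beside 10.4% of all genes. This was Alas2, the first enzyme of haem synthesis in red cells, with -1.08. Alas2 was no longer called without E14.5 replicate 2 (-0.84), E15.5 replicate 2 (-0.97) or E15.5 replicate 3 (-0.94). Adult globin genes were not analysed here, since their probe sets have several gene symbols or none.

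Of 25 lens genes 16 fell, 8 of them on every E14.5 array, with a median of -2.56. Crybb1, a beta-crystallin, had 634, 23888 and 17754 at E14.5 and 253, 272 and 279 at E15.5, and Crygd, a gamma-crystallin, had 523, 8331 and 8889 against 19.8, 11.2 and 51.4. In each the lens-rich replicates 2 and 3 were far above replicate 1, which was still above E15.5. By limma none of the 25 was called against replicate 1 alone, where 2 had an unadjusted p under 0.05. There Crygd had -3.74 (SE 2.20, limma adjusted p = 0.24) and Cryba1 -3.62. The spread used for these tests also holds the lens RNA of older arrays. Cryaa, the alpha-crystallin of the lens, had 584 on replicate 1 against 279 to 323 at E15.5 and did not hold; without E14.5 replicate 2 or 3 it had -3.17 and -3.22 and was no longer called. The further genes with large falls that did not hold were Crygn, Gje1, Cryba2 and Lim2, all of the lens, with -3.77, -3.62, -3.60 and -2.84, and Nefl, a neurofilament, with -3.14. Cryba2 too was no longer called without E14.5 replicate 2 (-2.93) or replicate 3 (-2.95). The gamma-crystallins are near-identical copies, so their probe sets may share signal. Cryab, the alpha-crystallin that other tissues also express, had a log2 difference of -0.21.

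Retina and optic cup genes fell in 7 of 12 cases, 2 of them on every E14.5 array, and by limma none was called against replicate 1 alone, where 4 had an unadjusted p under 0.05. Without E14.5 replicate 3 the count was 2, and without E15.5 replicate 3 it was 4. Six6, a homeobox factor of the retina, had 104, 482 and 4345 at E14.5 and 106, 102 and 59.3 at E15.5, so that replicate 1 lay within E15.5, and its log2 difference of -2.63 became -1.25, no longer called, without replicate 3. Foxd1, a forkhead factor of the temporal retina that is in none of the lists and is named for the size of its fall, had 1109, 1418 and 6235 at E14.5 and 93.9, 69.7 and 65.3 at E15.5. It was highest on the retina-rich replicate 3, yet all 3 E14.5 arrays stood far above E15.5, with a log2 difference of -4.56 (SE 0.55, limma adjusted p = 7.3e-07), and -3.62 against replicate 1 alone. At E17.5 Foxd1 read 919, 102 and 1098 and was called higher than at E15.5 by 2.44. On these arrays retina genes summed to 8799, 5720 and 3513, and skeletal muscle genes to 111950, 8486 and 98381. Whether Foxd1 goes with either was not tested. Nefm, a neurofilament of long axons from the peripheral nerve list, had 983, 623 and 4299 against 383, 77.6 and 39.9, a log2 difference of -3.46 that held on every E14.5 array.

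**Figure D4:**
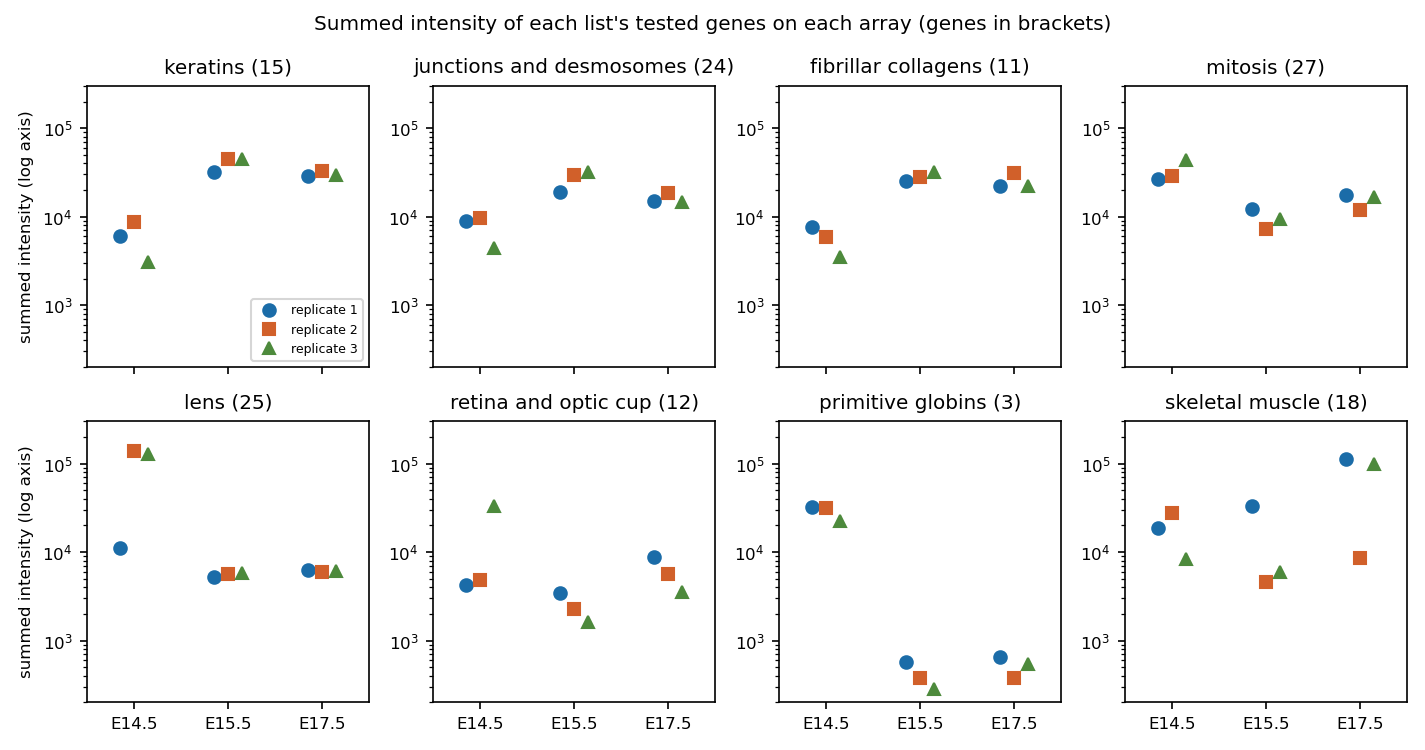
Summed intensity (log axis) of the tested genes of 8 lists on each array of E14.5, E15.5 and E17.5, with the number of genes in brackets and one symbol per replicate number. Lens genes are high on 2 E14.5 arrays and retina genes on 1, primitive globins are high on all 3, and muscle genes are high on 2 E17.5 arrays and read 18930, 27744 and 8447 at E14.5 and 32901, 4574 and 5978 at E15.5.

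A few further genes fell on every E14.5 array. B3gnt5, a glycosyltransferase of glycolipids, had 572, 938 and 933 at E14.5 and 106, 87.3 and 47.6 at E15.5, a log2 difference of -3.13 (SE 0.23, limma adjusted p = 3.0e-10). Aldh1a1, which makes retinoic acid and is found in the lens and dorsal retina as well as the cornea, had 1357, 2854 and 3773 against 442, 258 and 212, a log2 difference of -3.01 and -2.17 against replicate 1 alone. Its order at E14.5 put the lens-rich replicates above replicate 1. Olfr1307, an olfactory receptor, had 698, 384 and 404 at E14.5 and 7.71, 11.4 and 9.27 at E15.5, a log2 difference of -4.28 that held on every E14.5 array. Its E15.5 intensities lie under the offset of 16, and with an offset of 1 the difference was -5.53.

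Of 14 retinoic acid genes 3 rose, none of them on every E14.5 array, and 1 rose without E14.5 replicate 3, while Aldh1a1 fell. The counts of this paragraph stand beside 7.35% of all genes called higher and 3.1% called lower. Cyp26a1, which degrades retinoic acid, had 33.1, 53.8 and 281 at E14.5 and 225, 282 and 314 at E15.5, a log2 difference of 1.51, and 1.00 and no longer called without E14.5 replicate 1. Of 27 axon guidance genes 6 rose, 2 of them on every E14.5 array, and 2 fell, with a median of 0.62. The semaphorins Sema3c and Sema5a rose by 2.68 and 1.85 on every E14.5 array and Sema3f by 1.13, or 0.98 and no longer called without E15.5 replicate 3. The ephrin receptor Epha3 fell from 508, 329 and 363 to 166, 126 and 91.0, with no overlap and a log2 difference of -1.55. Of 7 factors that act on vessels, Tnmd, tenomodulin, and Serpinf1, the anti-angiogenic PEDF, rose by 3.45 and 2.71, both also against replicate 1 alone. Serpinf1 had 1220, 678 and 228 at E14.5 and 3720, 3363 and 4664 at E15.5.

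In the Wnt pathway 3 of 24 genes rose, Dkk2, Wnt5a and Axin2. The count was 5 without E14.5 replicate 1, and 4 with the mean of a gene's kept probe sets. Wnt4 had 0.73 and was not called, while a further probe set of it gave 1.86. The median of the list was 0.10, against 0.01 over all genes, of which 7.35% were called higher and 3.1% lower. The other counts of this paragraph stand beside the same shares. Wnt5a, a ligand that acts largely outside beta-catenin, had 524, 493 and 138 at E14.5 and 1155, 1294 and 1587 at E15.5, a log2 difference of 1.95 that held on every E14.5 array. Axin2, a target of beta-catenin, had 1.22, and 0.65 without E14.5 replicate 3. Of 26 genes of the TGF-beta and BMP pathways 3 rose and 1 fell, with a median of 0.06. Bmp3, a BMP that opposes others, had 226, 39.2 and 28.0 against 459.5, 515 and 902, a log2 difference of 2.88. In the FGF and EGF pathways 5 of 23 rose and 2 fell, and without E14.5 replicate 3, 2 rose. Erbb2, an EGF receptor family member, rose by 1.69 on every E14.5 array. Egfr had 1056, 645 and 161 against 1245, 1222 and 1439, and Fgfr2, the receptor of epithelial FGFs, had 1432, 955 and 261 against 1522, 1647 and 2082. Both were within reach of E15.5 on replicate 1 and low on replicate 3, and were no longer called without it, with 0.64 and 0.56. Of 14 Notch genes Notch2 was called higher with 1.37 and the target Hey1 lower with -1.04, neither on every E14.5 array. Hey1 was no longer called without E14.5 replicate 3 (-0.96), E15.5 replicate 2 or E15.5 replicate 3 (-0.80).

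Some genes outside these groups rose sharply. Hlf, a clock-controlled transcription factor, had 119.5, 112 and 84.8 at E14.5 and 1185, 1870.1 and 1662 at E15.5, a log2 difference of 3.70 (SE 0.15, limma adjusted p = 4.9e-15). Of 16 clock genes 4 rose, Hlf alone on every E14.5 array, and 2 did without E14.5 replicate 1. Hspa1a, the inducible heat shock protein that marks stress, rose from 114 to 214 up to 1544 to 2551, a log2 difference of 3.59, while Fos, the immediate early gene, had -0.51 and was not called. Of 11 immediate early and stress genes 3 rose, with a median of -0.31. Of 9 complement genes 4 rose, all on every E14.5 array, with a median of 0.26: the protease Masp1 by 2.44, the inhibitors Cd55 and Serping1 by 2.26 and 1.76 and C1s1 by 1.88. Of 12 genes of antigen presentation and interferon response 3 rose, and 1 without E14.5 replicate 3 or E15.5 replicate 2. Ifitm1, an interferon-induced membrane protein, had 559.7, 523 and 217 at E14.5 and 2566, 3924 and 5006 at E15.5, a log2 difference of 3.15. In a list of 12 macrophage genes Mrc1, the mannose receptor, rose by 2.10 and no other member was called. Summed over the list, macrophage genes read 3448 to 4778 at E14.5 and 4853 to 5817 at E15.5. By limma no pigment cell or vessel endothelium gene was called, with 2 of 9 and 2 of 8 at an unadjusted p under 0.05. Their sums overlapped between the ages, at 3674 to 7973 against 1859 to 9342 and at 1725 to 4130 against 1991 to 3805. Of 18 skeletal muscle genes 1 rose and 1 fell, and of 15 glycolysis genes Aldoc rose by 1.27. Among 8 peripheral nerve genes 1 rose and 3 fell. Beside such counts stand 7.35% of all genes called higher and 3.1% called lower. The sex-linked Xist read 3940, 573 and 4471 at E14.5 and 30.9, 332 and 6082 at E15.5, so the arrays of each age were mixed in this respect.

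Of the 270 called genes in the lists and among the largest changes, 245 lay within 1 log2 unit of their E15.5 level at E17.5. The same share over all genes was not counted, and the median log2 difference of all genes for this step was -0.065. The count of 245 alone therefore does not set the called genes apart. The step from E15.5 to E17.5, which shares the E15.5 arrays with the comparison described here, called 74 genes (0.569%), 51 higher and 23 lower. This count rests on single arrays: without E15.5 replicate 2 it was 2, without E15.5 replicate 3 it was 4, and without E15.5 replicate 1 it was 311. Krt12 read 4559, 6869 and 3784 at E17.5, with a log2 difference of -0.57 from E15.5 (limma adjusted p = 0.13), and Kera read 6197, 5071 and 6159. Col1a1 read 4917, 7265 and 5150 at E17.5. Rrm2 read 586, 535 and 567 on the E17.5 arrays, 1.11 above E15.5 (limma adjusted p = 0.014) and still below all E14.5 arrays. Mki67 read 1052, 626 and 919 at E17.5, with a log2 difference of 0.72 that was not called, and the primitive globin Hba-x stayed at 234, 172 and 202.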

How the data were processed

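Total RNA of whole cornea was amplified and hybridised to Affymetrix arrays, 1 array a sample. Per the submitters' processing notes, values were made with Affymetrix Expression Console 1.1 and PLIER. The deposited values are intensities on a linear scale, 1 per probe set; a genome build is not given in the sources used here. Of 35557 probe sets, 21789 had 1 gene symbol, 1621 several and 12147 none in GEO's platform annotation, which can be old. Those with 1 symbol were used (21698 matched to RefSeq). The 2 missing values were left out of the fits.

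Probe sets above the array median on 2 or more of the 32 arrays of whole cornea were kept (14329). Where a gene had several, the brightest on average stood for it, and 12998 genes were tested. Log2(intensity + 16) was fitted with limma 3.58.1 in R 4.3.3, with 1 mean per age over all 32 arrays, so that the ages share 1 estimate of the spread, and p-values were adjusted by Benjamini-Hochberg over all genes. Calls needed an adjusted p under 0.05 and a difference of at least 1. The procedure was tested on simulated data.

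Genes named are the 15 largest rises and 15 largest falls that held on every E14.5 array, the 6 largest in each direction that did not, and members of 42 gene lists; clone names were left out. Members and lists were chosen with earlier results of these data known. Lists are described by counts and medians, with no test of the list. Promoters are those of RefSeq, searched on both strands. Printed stretches and motif positions cover the 250 bases before each start. Shares of promoters with a motif were counted over longer windows, which also held bases after the start. Alternatives changed the offset, filter, normalization, probe-set rule, moderation, weights, arrays in the fit and thresholds, added a replicate block, and left out single arrays or the lens-rich pair.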

Additional observations from a re-analysis of the deposited data

How the results depend on the processing

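The main counts were 1358 genes called, 955 higher, 403 lower, 741 holding on every E14.5 array, and 74 from E15.5 to E17.5. Leaving out 1 of the 6 arrays gave 1122 to 1546 called, 796 to 1072 higher, 326 to 474 lower, 642 to 977 holding, for which fewer arrays then had to pass, and 2 to 311 from E15.5 to E17.5. A difference of at least 2 left 343, 259, 84, 156 and 16. Without the lens-rich E14.5 arrays 253 genes were lower. The step to E17.5 gave 46 with the stricter filter, 307 with array weights, 0 by limma with the 18 arrays of E14.5 to P14 (1561 at an unadjusted p under 0.05), 129 without the lens-rich arrays and 1 at an adjusted p under 0.01; the cause was not tested. Fitted on the 6 arrays of E14.5 and E15.5 alone, 1140 genes were called, 816 higher and 324 lower. Of the 270 called named genes 56 were then no longer called. Rises went from 5 to 1 in periocular mesenchyme regulators and from 6 to 3 in axon guidance. Falls went from 7 to 2 in retina genes, while mitosis genes stayed at 25 falls and fibrillar collagens at 6 rises. With the replicate block, fitted on the 6 arrays, 910 genes were called, 255 of them lower, and 107 of 270 called named genes were no longer called. Deviations of same-numbered arrays correlated at -0.0143, -0.0418 and -0.052, and those of differently numbered arrays between -0.0571 and 0.0996. Whether same-numbered arrays share a batch was not tested. The E17.5 step has no value in the fits of the 6 arrays. No called named gene changed direction under the alternatives, except Mug2 without the lens-rich arrays (-0.69). Arrays carry no depth, and precision is limited by the 3 arrays of each age. What RNA of the lens, retina and blood at E14.5 adds to the spread was not tested.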
